A study of Zea mays with 192 samples.

Results

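Among the 41187 rows of a single-cell expression table from maize, 3 were examined here: the dehydrin gene dhn2 (GRMZM2G373522), the catalase gene cat1 (GRMZM2G088212) and GFP_ABI5, the row of a GFP fusion construct of the factor ABI5. They were taken by their identifiers, and all 3 had signal. The 3 rows were chosen by a rule that drew on results of these data: dhn2 was selected on its mean levels in the pools, which were known to lie far apart, so those levels are a description. The cells were protoplasts, which are cells freed of their walls, from leaves of the inbred maize line B73. Seedlings had been germinated and kept in continuous darkness at 25 °C, and leaves of more than 10 of them, aged 10 to 12 days, went into each isolation. One pool of 96 protoplasts had received pre-meiotic transcription factors (the pre-meiotic TF pool, here pre-meiotic pool) and another pool of 96 had received bHLH factors (the bHLH pool). No untransfected cells were analysed here, and the sources used here do not list the constructs of each pool. All cells share genotype, tissue and the transfection procedure. No separate transfections are named in the labels, so a pool counts as 1 replicate, spreads are spreads between cells, and no significance test was made.

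Dehydrins are very hydrophilic proteins of the late embryogenesis abundant (LEA) group that gather in drying seeds and in vegetative tissue under drought, cold or salt. Catalases break down hydrogen peroxide in peroxisomes, and maize cat1 is known for its activity in the scutellum of the seed and its response to abscisic acid. ABI5 is a basic leucine zipper (bZIP) factor, best known from Arabidopsis seeds, where it carries the abscisic acid signal to genes whose promoters hold abscisic acid response elements, LEA genes among them. The question put to the data was whether dhn2 and cat1 were higher where more of the ABI5 construct was detected.

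RNA was counted with unique molecular identifiers (UMIs), so that a UMI stands for a captured molecule, and levels are UMIs per 1000000 in a cell (TPM). The pre-meiotic pool held 953 to 88243 UMIs per cell and the bHLH pool 4699 to 148894, with medians of 26488 and 28578. Fewer than 2000 genes were detected in 22 cells of the first pool and 2 of the second. Of the leaf markers, the C4 mesophyll genes ppdk1, pep1 and mdh6 together had 0 to 1137 TPM per pre-meiotic cell and 0 to 410 TPM per bHLH cell. pep1, which encodes the carboxylase that defines these cells, was seen in 16 and 7 cells. The 2 matched bundle sheath genes summed to 0 to 381 and 0 to 129.6 TPM, the 2 vascular genes to 0 to 45.3 and 0 to 61.8 TPM, and the 2 matched tapetum genes had 0 UMIs among pre-meiotic cells and 1 UMI each among bHLH cells. The 3 matched epidermis genes summed to 0 to 4048 and 0 to 286 TPM. In the pre-meiotic pool most of this was the gene model of ocl4 (1946 and 0 UMIs), for which the table also has a separate construct row. Of the others, ocl1 had 67 and 102 UMIs and gl1 3 and 4. The part of these markers in the results was not tested.

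The ABI5 construct was detected only in the pre-meiotic pool, and sparsely. GFP_ABI5 had 38 UMIs there (exact 95% Poisson interval 26.9 to 52.2), which lay in 29 of 96 cells (30.2%, exact Clopper-Pearson interval 21.3% to 40.4%). In the bHLH pool 0 of 96 cells had a UMI, which by a floor of 3 cells allows a share of up to 3.125% (exact interval up to 3.77%). This limits cells with a UMI, not cells that held the construct. Intervals and floors cover counting error only. The level over the whole pre-meiotic pool was 12.5 TPM (8.88 to 17.2). This was 13.7 times the floor of 3 UMIs over the bHLH pool, and at the lower limit of the interval it was at least 9.69-fold higher than that floor. The bHLH cells give the background of this row. No gene model was named ABI5 in the reference table used here, so the native gene was not identified.

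Where the construct was detected, most cells held a single molecule. Of the 96 cells, 67 had no GFP_ABI5 UMI, 22 had 1, 6 had 2 and 1 had 4. In the 29 cells with a UMI the level ran from 12.5 to 360 TPM with a median of 29.9 TPM. The highest of these values rests on 1 UMI in a cell of 2774 UMIs, and the lowest on 1 UMI in a cell of 79840. The level of a cell is therefore set in large part by its depth, and the ranking of construct levels among these cells is coarse. After thinning every cell of at least 5000 UMIs to that depth, the expected share with a GFP_ABI5 UMI was 6.36%.

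The dehydrin gene dhn2 was much higher in the pre-meiotic pool. Its level there ran from 0 to 1896 TPM with a median of 183 TPM, and in the bHLH pool from 0 to 477 TPM with a median of 3.36 TPM. The means were 269 ± 278 TPM (SD, n = 96 cells) and 44.2 ± 77.1 TPM (SD, n = 96 cells), a ratio of 6.08. The ranges of the pools overlap: 16 pre-meiotic cells lay above the highest bHLH cell, and 5 bHLH cells lay above the pre-meiotic median. At least 100 TPM was reached in 69 cells of the pre-meiotic pool and 15 of the bHLH pool.

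Detection and summed molecules of dhn2 gave the same order. A dhn2 UMI was present in 88 of 96 pre-meiotic cells (91.7%, 84.2% to 96.3%) and 48 of 96 bHLH cells (50.0%, 39.6% to 60.4%). Thinned to 5000 UMIs the expected shares were 62.0% over 86 cells and 17.3% over 95 cells. Summed UMIs were 890 and 145, a ratio of 6.63 (5.56 to 7.96). On the log2 scale (mean TPM plus 10, bHLH over pre-meiotic, relative to the median gene) dhn2 stood at -2.63. That value is below all but 1.35% of the 1775 eligible gene models, which had a UMI in 25% or more of the cells and averaged 50 TPM or more in either pool. Of these models 15.7% were at least 2-fold lower in the bHLH pool and 6.76% at least 2-fold higher. dhn2 was chosen for the distance between its pool means, and it met the 50 TPM minimum only in the pre-meiotic pool. Its position among the models, its detection and its summed UMIs are therefore descriptions and add no separate support.

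Among pre-meiotic cells dhn2 was also uneven. A single cell, protoplast 56, held 147 of its UMIs, 16.5% of the total, at 1896 TPM. Without it the mean of the pool was 252 TPM. The variance of dhn2 UMIs over that expected from depth and counting alone was 11.8, and 5.26 without protoplast 56, against a median of 2.09 over 1773 of the eligible genes. In the bHLH pool this dispersion was 4.66, and 2.56 without the cell with the most dhn2 UMIs, against a median of 1.72 over 1768 genes. At a given relative spread this measure grows with the count of a gene. Neither the genes behind the medians nor the pools were matched in level.

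The catalase gene cat1 lay close in both pools. It ran from 0 to 569 TPM in the pre-meiotic pool with a median of 97.6 TPM, and from 0 to 623 TPM in the bHLH pool with a median of 127 TPM. The means were 109 ± 103 TPM (SD, n = 96 cells) and 149 ± 112 TPM (SD, n = 96 cells), a bHLH over pre-meiotic ratio of 1.37. This difference is smaller than the spread between cells, but the dhn2 means also differed by less than the SD of dhn2 in the pre-meiotic pool. A cat1 UMI was found in 78 cells (81.3%, 72.0% to 88.5%) and 89 cells (92.7%, 85.6% to 97.02%), and the thinned shares were 38.8% and 50.8%. Summed UMIs of 313 and 444 gave a bHLH over pre-meiotic ratio of 1.31 (1.13 to 1.52). Relative to the median gene the log2 ratio was 0.16, above 60.5% of the eligible genes. The dispersion of cat1 was 1.44 in the pre-meiotic pool, below the median gene, and 1.74 in the bHLH pool, close to the median gene.

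**Figure D1:**
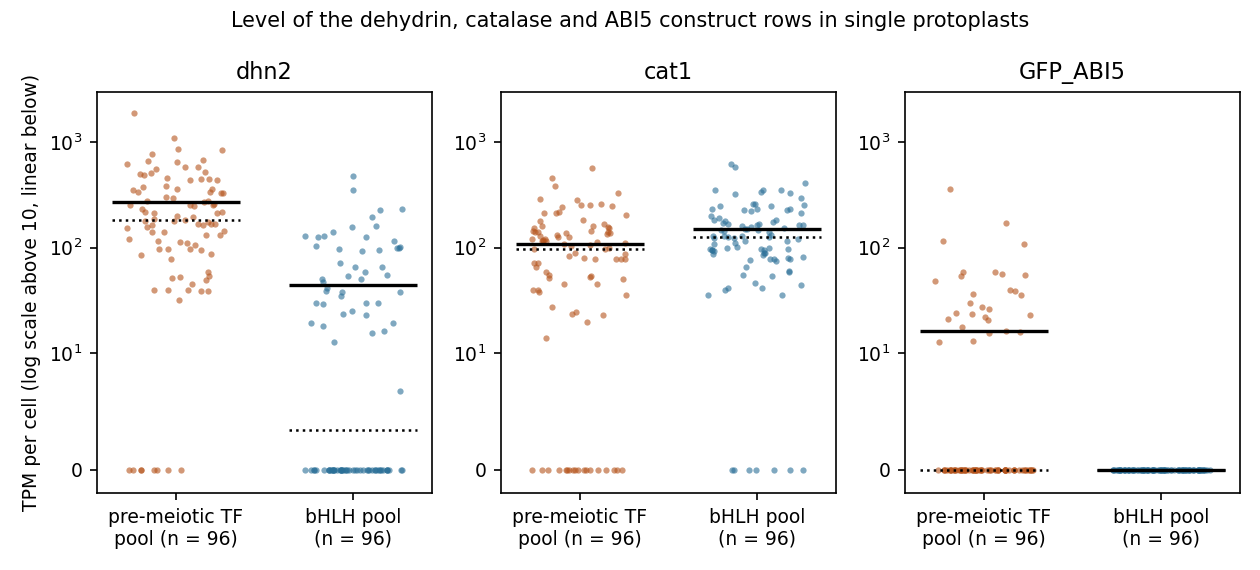
Level of dhn2, cat1 and GFP_ABI5 in each protoplast (TPM, log scale above 10 and linear below), with 96 cells per pool. Solid lines are means and dotted lines medians. dhn2 has a mean of 269 TPM in the pre-meiotic pool against 44.2 TPM, cat1 overlaps over nearly its whole range, and GFP_ABI5 is at 0 in every bHLH cell.

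Cells of the pre-meiotic pool in which GFP_ABI5 was detected were then set beside those in which it was not, among the 86 cells with at least 5000 UMIs. Here and below, with and without the construct mean with and without a detected GFP_ABI5 UMI. Without a GFP_ABI5 UMI, dhn2 ran from 0 to 1088 TPM with a median of 158 TPM (58 cells). With 1 UMI it ran from 86.8 to 1896 TPM with a median of 195 TPM (21 cells), and with 2 or more from 96.4 to 861 TPM with a median of 261 TPM (7 cells). The medians and the means (231, 338 and 401 TPM) climb with the number of construct molecules, but the levels from summed UMIs, 247, 382 and 325 TPM, do not. Both the mean and the summed level of the set with 1 UMI include protoplast 56, which held 147 of its 342 dhn2 UMIs. The ranges of the 3 sets overlap almost wholly. All 28 cells with the construct had a dhn2 UMI, against 54 of the 58 cells without it.

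**Figure D2:**
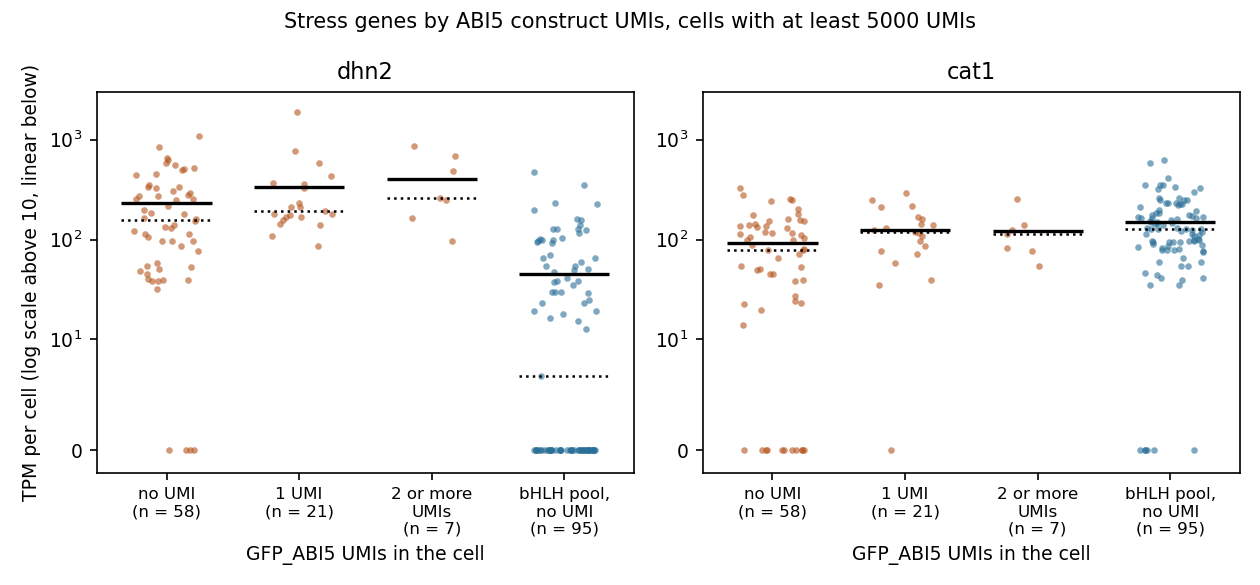
Level of dhn2 and cat1 per cell (TPM, log scale above 10 and linear below) by the number of GFP_ABI5 UMIs, for cells with at least 5000 UMIs. Solid lines are means and dotted lines medians. The dhn2 medians are 158, 195 and 261 TPM in pre-meiotic cells with no, 1 and 2 or more construct UMIs. The levels from summed UMIs (247, 382 and 325 TPM) are not in that order. On average, the 58 cells without a detected construct UMI lie far above the bHLH pool.

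The size of the dhn2 difference in means and summed UMIs rested in large part on protoplast 56, which carried 1 GFP_ABI5 UMI. The means were 354 ± 366 TPM (SD, n = 28 cells) with the construct and 231 ± 226 TPM (SD, n = 58 cells) without it, and the ratio of summed UMIs was 1.49 (1.30 to 1.71). Without protoplast 56 the mean with the construct was 297 ± 210 TPM (SD, n = 27 cells) and the ratio of summed UMIs was 1.05 (0.906 to 1.23). Of the 28 cells with the construct, 22 lay above the median of those without it. The median gene was itself higher in cells with the construct, by 0.33 on the log2 scale over 1179 genes. Relative to it dhn2 stood at 0.26, and 19.0% of these genes stood higher. Without protoplast 56 the relative value was 0.0043. For the cells with 2 or more construct UMIs against those with none, sets that do not hold protoplast 56, it was 0.45. Of the 1179 genes 0.0848% were at least 2-fold higher and 1.36% at least 2-fold lower, and dhn2 and cat1 were in neither set.

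The level of dhn2 in cells without a detected construct was still far above that of the bHLH pool. These 58 cells had a mean of 231 TPM against 44.7 TPM in the 95 bHLH cells of the same minimum depth, a ratio of 5.18. Summed UMIs gave a ratio of 5.56 (4.60 to 6.75). Most of the gap between the pools in dhn2 was thus present in cells that showed no ABI5 construct molecule at their depth. A count of 0 in a cell does not show that the construct was absent from it.

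The cat1 medians were 79.0 TPM with no GFP_ABI5 UMI (range 0 to 328), 119 TPM with 1 (0 to 289) and 115 TPM with 2 or more (53.9 to 256). They were higher with 1 construct UMI than with none, and close between the second set and the third. The means were 125 ± 69.6 TPM (SD, n = 28 cells) with the construct and 91.5 ± 80.0 TPM (SD, n = 58 cells) without it. Summed UMIs gave a ratio of 1.41 (1.12 to 1.78). Relative to the median gene cat1 stood at 0.071, and 41.6% of the 1179 genes stood higher. No cat1 UMI was found in 1 of the 28 cells with the construct and in 11 of the 58 without it.

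Other measures moved with detection of the construct. Cells with a GFP_ABI5 UMI had a median of 37742 UMIs and 6837 genes, against 26013 UMIs and 4301 genes in cells without. They held UMIs on a median of 9 of the 22 other constructs assigned to this pool, against 3. The most abundant row of the table, GRMZM2G028910, took a median of 29.1% of their UMIs, against 35.1%. The part of these measures in the means of dhn2 and cat1 was not tested, apart from a split by depth given here and the partial rho values that follow. Above the median depth dhn2 had medians of 195 TPM with the construct (19 cells) and 183 TPM without (24 cells). At or below it the medians were 372 TPM (9 cells) and 127 TPM (34 cells). For cat1 the corresponding medians were 119 against 71.1 TPM and 116 against 104 TPM.

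As a continuous relation, Spearman's rho between dhn2 and GFP_ABI5 was 0.27 over the 86 cells, and between cat1 and GFP_ABI5 it was 0.21. The cells share a library preparation and differ in depth, so these are descriptions. Nearly all genes shared the direction: of 7863 gene models with a UMI in at least 25% of these cells, 7033 had a positive rho with GFP_ABI5, with a median of 0.14. A higher rho than that of dhn2 was found for 901 of them (11.5%), and a higher one than that of cat1 for 2032 (25.8%). Among the 28 cells with the construct alone, rho was 0.33 for dhn2 and -0.15 for cat1. In 21 of these cells the construct had 1 UMI, so its level there was set by depth alone and these values do not measure dose. Given the UMI total of the cell, the partial rho was 0.26 for dhn2 and 0.20 for cat1. Given the number of genes in the cell it was 0.20 and 0.098, and given the summed level of the other constructs it was 0.20 and 0.059. In cells thinned to 5000 UMIs, the plain rho was 0.076 for dhn2 and 0.032 for cat1.

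**Figure D3:**
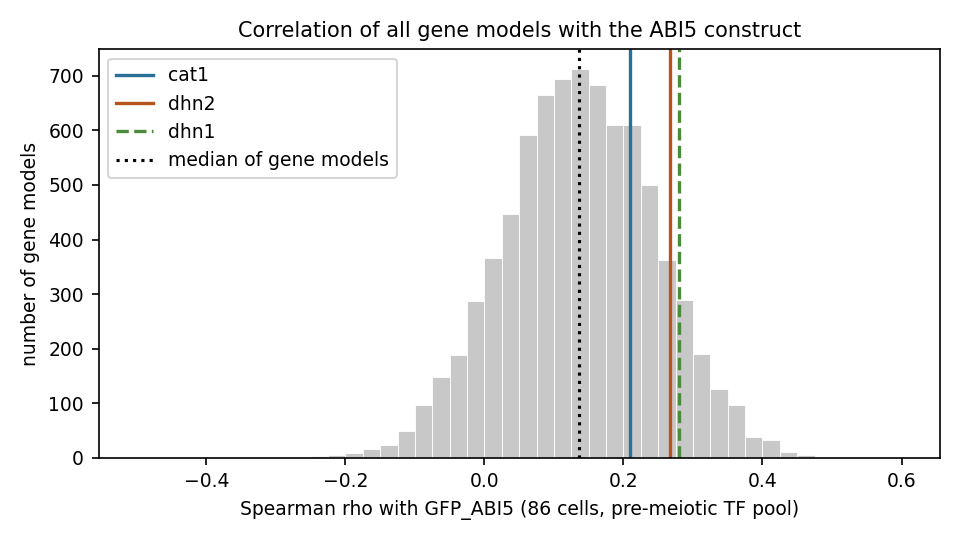
Number of gene models by their Spearman rho with GFP_ABI5 over 86 cells of the pre-meiotic pool. Vertical lines mark cat1 (0.21), dhn2 (0.27), dhn1 (0.28) and the median gene model (0.14). The named genes lie to the right of the median and inside the body of the distribution.

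The other constructs gave a second scale. Over the 22 other construct rows of the pool, rho with dhn2 ran from -0.054 to 0.23 with a median of 0.097, and none exceeded the 0.27 of GFP_ABI5. GFP_bHLH97, at 0.23, came next, within the 0.1 margin used for rho. The rho of GFP_ABI5 with dhn2 was 0.19 in cells with at least 2000 genes. With the most abundant row left out of the totals it was 0.23. The order of the constructs was not recomputed in these settings. Their detection also differed, from 7 cells for ZFL2_GFP to 65 for GFP_bHLH97. With cat1 the coefficient ran from 0.050 to 0.32 with a median of 0.16, and 7 constructs exceeded the 0.21 of GFP_ABI5. These were GFP_bHLH97 (0.32), ZFL2_GFP (0.30), GFP_bHLH103 (0.29), GFP_WRKY81 (0.27), GFP_NAC25 (0.24), GFP_DOF25 (0.23) and GFP_ZIM13 (0.21). The constructs are not independent of each other, since GFP_ABI5 itself had a rho of 0.40 with GFP_ZFL1 and with GFP_bHLH103, and of 0.41 with the sum of the other constructs. The GFP_control row, with 7 UMIs in the pre-meiotic pool and 5 in the bHLH pool, had a rho of 0.15 with dhn2 and 0.022 with cat1.

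**Figure D4:**
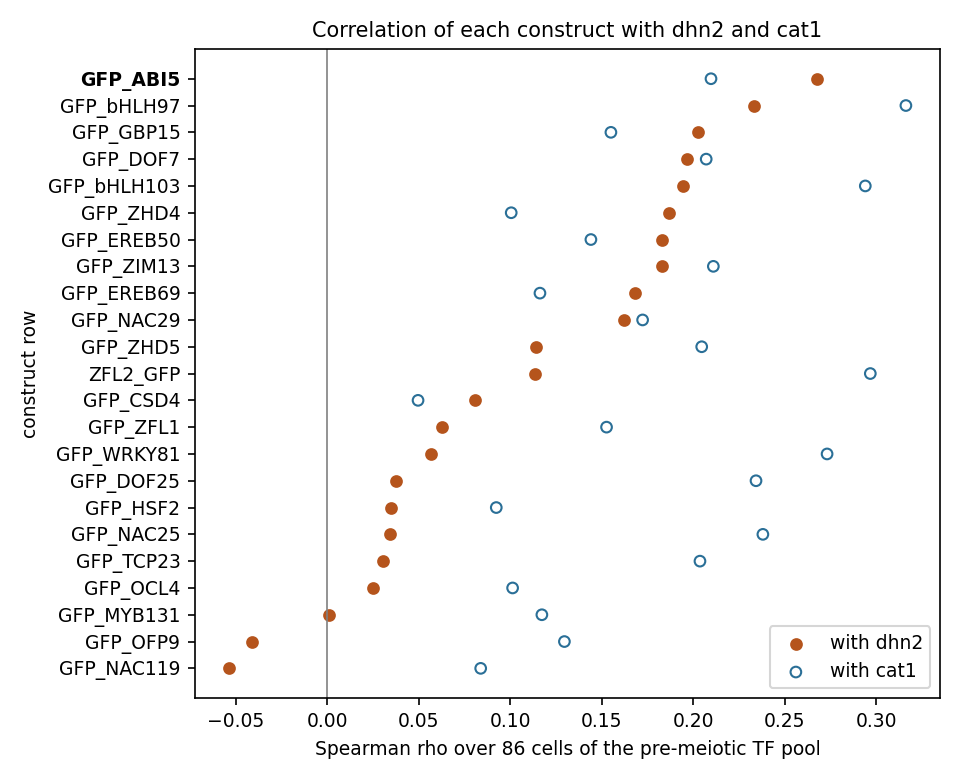
Spearman rho of each construct row of the pre-meiotic pool with dhn2 (filled) and cat1 (open) over 86 cells. GFP_ABI5 has the highest value for dhn2 in this setting, 0.27, close to the 0.23 of GFP_bHLH97. For cat1 its value is 0.21, and 7 constructs lie above it.

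dhn2 and cat1 followed each other weakly. Their rho was 0.23 over 86 cells of the pre-meiotic pool and 0.15 over 95 cells of the bHLH pool. In the first pool 16.4% of gene models had a higher rho with dhn2 than cat1 had. Both ran against the most abundant row: rho with the share of GRMZM2G028910 was -0.42 for dhn2 and -0.51 for cat1 in the pre-meiotic pool, the lowest value of any gene model for each. With that row left out of the totals, the rho between dhn2 and cat1 was 0.12, and in cells with at least 2000 genes it was 0.093.

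The gene models most like each member were found by the highest rho. For dhn2 in the pre-meiotic pool they were GRMZM2G125452 (0.48), TIFY27 (GRMZM2G089736, 0.48), of the family of jasmonate repressors, GRMZM2G334181 (0.48), GRMZM2G076062 (0.46) and GRMZM2G054300 (0.45). In the bHLH pool they were GRMZM2G123896 (0.44), GRMZM5G884819 (0.42), bip2 (GRMZM2G415007, 0.41), which encodes a chaperone of the endoplasmic reticulum, GRMZM2G062121 (0.41) and GRMZM2G323888 (0.40). Between the pools 0 of the 5 were shared. The 5 were the highest of 7862 models in the first pool and of 8262 in the second. No background share was computed, so this count is not read as a result about dhn2.

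For cat1 the corresponding models in the pre-meiotic pool were GRMZM2G122543 (0.60), GRMZM2G317652 (0.60), GRMZM2G326111 (0.58), GRMZM2G046824 (0.58) and the glutathione S-transferase gene gst31 (GRMZM2G475059, 0.57). In the bHLH pool they were GRMZM2G074282 (0.49), pck2 (GRMZM5G870932, 0.46), GRMZM2G054300 (0.40), HO1 (GRMZM2G101004, 0.39), a haem oxygenase gene, and GRMZM2G469142 (0.37). Again 0 of 5 were shared, out of as many models, and this count is not read as a result about cat1 either. GRMZM2G054300 was thus among the nearest of dhn2 in one pool and of cat1 in the other.

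Nearest to GFP_ABI5 stood GRMZM2G082962 (0.52), GRMZM2G151268 (0.48), GRMZM2G092776 (0.48), GRMZM5G803952 (0.47) and GRMZM2G165567 (0.47). The last is named PYL10 in the reference table, a name of the abscisic acid receptor family. It had 69 UMIs in 35 pre-meiotic cells and 142 UMIs in 59 bHLH cells, so it was not confined to the pool with the construct. These 5 were picked as the highest of 7863 models.

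Relatives of dhn2 differed among themselves between the pools. The second dehydrin gene, dhn1 (GRMZM2G079440, also named rab17), ran from 0 to 1137 TPM with a median of 38.9 TPM in the pre-meiotic pool and from 0 to 828 TPM with a median of 24.1 TPM in the bHLH pool. It was seen in 62 and 56 cells, its ratio of summed UMIs was 0.64 (0.51 to 0.79), and relative to the median gene its log2 ratio was -0.72. Its rho with dhn2 was 0.22 and 0.21 in the pools. With GFP_ABI5 its rho was 0.28, and its median was 71.3 TPM in the 28 cells with the construct (range 0 to 387) and 34.1 TPM in the 58 without (0 to 281). The mean of the median gene was itself higher with the construct, by 0.33 on the log2 scale. dhn1 was not placed against that background. The ABA- and stress-responsive gene asr1 (GRMZM2G136910) was sparse, with 50 UMIs in 26 pre-meiotic cells and 6 UMIs in 6 bHLH cells (ratio 0.111, 0.0389 to 0.259). The LEA gene mlg3 (GRMZM2G096475) went the other way, with 2 UMIs against 95 in 34 cells (ratio 44.0, 11.8 to 368). Lea14A (GRMZM2G050607) had 1 UMI in each pool.

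Few genes of the lists related to stress and abscisic acid were abundant enough to be eligible. The list of dehydrin and LEA genes had 5 matched members, of which 2 were eligible and 1, dhn2 itself, was at least 2-fold lower in the bHLH pool, against 15.7% of all eligible genes. The second catalase gene, cat2 (GRMZM2G090568), had 3 and 5 UMIs. Of 11 antioxidant enzyme genes 3 were eligible and 0 stood 2-fold apart on the log2 scale relative to the median gene, against 15.7% of eligible genes lower and 6.76% higher in the bHLH pool, with a median of 0.13. They were the ascorbate peroxidase gene apx2 (GRMZM2G140667; 228 and 302 TPM), which removes hydrogen peroxide with ascorbate, and the superoxide dismutase genes sod2 (GRMZM2G025992; 60.6 and 42.5 TPM) and sod9 (GRMZM2G058522; 39.5 and 57.3 TPM). Each pair gives the mean level in the pre-meiotic pool first. Both sod genes reached the eligibility minimum of 50 TPM only in the pool with the higher mean. Their differences in means are therefore in part set by that filter. The summed UMIs of sod2, 109 and 133, had the opposite order to its means. apx2 had a rho of 0.51 with cat1 in the pre-meiotic pool.

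Of 47 genes matched by an abscisic acid name 3 were eligible. By the log2 ratio of mean TPM plus 10 relative to the median gene, 0 of these stood 2-fold apart, beside the same background. They were the protein phosphatase genes PP2C25 (GRMZM2G155991; 25.2 and 51.1 TPM) and PP2C (GRMZM2G166035; 120 and 131 TPM), and GRMZM2G060702 (188 and 121 TPM). The last matched as ABP3 but is an actin depolymerising factor gene, ADF3. PP2C proteins of one clade hold back the abscisic acid signal, and membership of that clade was not checked. With GFP_ABI5, 17 of 17 list members detected widely enough, asr1 and ADF3 included, had a positive rho, as did 89.4% of all gene models, so the count is near the background. The median was 0.18 against 0.14 for all gene models. Of 31 bZIP factor genes 2 were eligible. bZIP17 (GRMZM2G103647, also bZip112) had 62.7 and 28.3 TPM, a log2 ratio of -1.19 relative to the median gene, and bZIP52 (GRMZM2G174284) had 23.3 and 51.1 TPM. PP2C25 and both bZIP genes reached the eligibility minimum of 50 TPM only in the pool with the higher mean. Their differences are therefore in part set by that filter and are given as descriptions. The seed storage globulin gene glb1 (GRMZM2G067402), a marker of the embryo, had 48 UMIs in 26 pre-meiotic cells and 16 UMIs in 11 bHLH cells. The other embryo genes had the opposite order, with 3 and 7 UMIs for vp1 and 0 and 2 UMIs for ole1. Together, the 3 matched embryo genes summed to 0 to 219 TPM per pre-meiotic cell and 0 to 129.6 TPM per bHLH cell. Their part in the dhn2 difference was not tested.

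**Figure D5:**
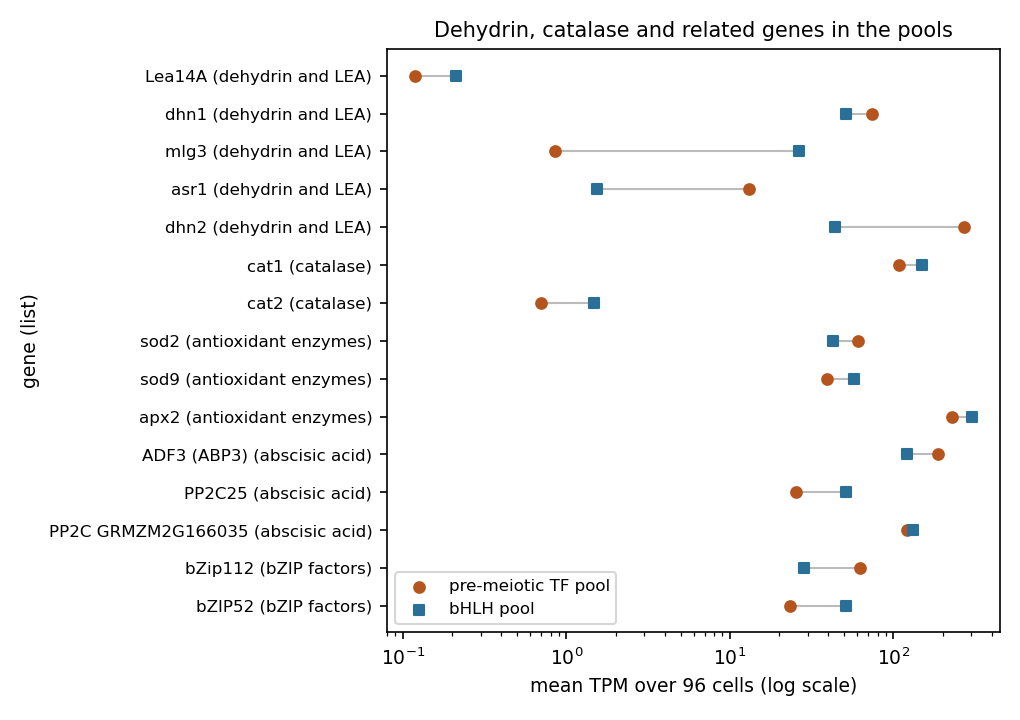
Mean level over 96 cells in each pool (TPM, log scale) of all matched dehydrin, LEA and catalase genes and the eligible genes of the other lists. Circles are the pre-meiotic pool and squares the bHLH pool. dhn2 (269 against 44.2 TPM) lies far apart, while mlg3 lies apart in the opposite direction and cat1, apx2 and both sod genes lie close.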

How the data were processed

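Single protoplasts were profiled with CEL-seq2, which counts the 3' ends of polyadenylated RNA, per the labels' protocols. HISAT2, SAMtools and UMI-tools were used on B73 RefGen_v3, per the submitters' processing notes. For tool versions, the annotation, filters on cells and the treatment of reads shared by similar genes, nothing was given in the sources used here.

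The deposited table is named TPM, but its values are a signal that the authors scaled with the cell totals recycled down the rows, so sums per cell run from 65502 to 10967874. Undoing this gave whole UMIs for 1001042 of 1001042 nonzero values (100%, tolerance 0.001 UMI), and recovered totals matched the divisors within 2.51e-05 UMI. TPM were recomputed per cell, without any filter on cells for levels and with at least 5000 UMIs for correlations (10 pre-meiotic cells and 1 bHLH cell left out). The design had assumed TPM as deposited. Doublets were not called, because each sample is labelled as 1 protoplast.

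The 22 other constructs were assigned to the pre-meiotic pool by where their UMIs per 1000000 were higher. Ratios use a pseudocount of 10 TPM and are relative to the median eligible gene, itself at 0.26 on the log2 scale. The pseudocount understates ratios of low genes. Ratio intervals are exact binomial ones. The level and correlation steps were tested on simulated counts of widely detected genes. The simulated exposure was continuous and known, unlike the sparse counts of GFP_ABI5, so the test does not cover that sparseness. Gene names come from the reference table of assembly Zm-B73-REFERENCE-NAM-5.0, which matched 16090 of the IDs. Its coordinates are of another build and are not given, and no sequences were used here. Named genes are the 3 members, the 5 models nearest to each by rho, all detected dehydrin, LEA and catalase genes, the eligible genes of the other lists, and constructs with a higher rho than GFP_ABI5. The split by depth, the additional rho values and dhn1 in detail were added later. The members and lists were chosen with earlier results of these data known. Python 3.11.15, numpy 2.4.6, pandas 2.3.3 and scipy 1.17.1 were used.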

Additional observations from a re-analysis of the deposited data

How the results depend on the processing

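Of 187 recomputed values 157 stayed within their margin (the counting interval for ratios, 0.1 for rho, 1.5 times for counts) and 30 moved beyond it. The dhn2 log2 ratio between the pools, -2.63, was -1.48 with a pseudocount of 100, -2.36 with no centring and -2.20 with the deposited values as they stand, and ran from -2.87 to -1.48 over all alternatives. That of cat1, 0.16, was 0.42 with no centring and -0.50 with the deposited values, a change of sign. The cat1 value with against without GFP_ABI5, 0.071, also changed sign, to -0.060 over all cells. The share of cells with GFP_ABI5 was 6.36% after thinning to 5000 UMIs. Thinning, which evens depth and leaves fewer UMIs of all 3 rows, also gave a rho with GFP_ABI5 of 0.076 for dhn2 and 0.032 for cat1. For cat1 that rho was 0.059 given the other constructs, 0.098 given the number of genes in the cell and 0.31 with the deposited values. The rho between dhn2 and cat1 in the pre-meiotic pool was 0.093 in cells with at least 2000 genes, 0.096 thinned, 0.12 without the most abundant row and 0.53 with the deposited values. The cause of these shifts was not tested. The dhn2 value with against without GFP_ABI5 was 0.0043 without protoplast 56, and 0.45 for cells with 2 or more construct UMIs against none. Counts of list genes at least 2-fold apart are small and changed as follows. bZIP factors lower in the bHLH pool numbered 0 in place of 1 with a pseudocount of 100, no centring, no minimum on low values or the deposited values. With no minimum, 2 dehydrin and LEA genes were lower and 1 higher, and 2 abscisic acid genes were lower and 1 higher. With the deposited values 2 dehydrin and LEA genes were lower and 1 higher, 1 antioxidant and 1 bZIP gene were higher, and 2 abscisic acid genes were lower and 2 higher. The shares of 15.7% lower and 6.76% higher over all eligible genes belong to the main setting. These altered counts therefore have no background beside them and are not read as results about the lists. No paired analysis was possible because protoplast numbers only count cells and each pool is 1 replicate. Depth limits what can be said of GFP_ABI5, which had 38 UMIs in all.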
